A study of Homo sapiens with 24 samples.

Results

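The thioredoxin and peroxiredoxin system was followed in HepG2 cells, an established human liver cancer line, through 10 genes chosen by name: TXN, TXN2, TXNRD1, TXNRD2, SRXN1, PRDX1, PRDX3, PRDX5, PRDX6 and TXNIP. Of these, 9 had a row in the table of read counts, and all 9 were among the 11152 genes tested. SRXN1, the sulfiredoxin that restores hyperoxidised peroxiredoxins, had no row under its gene ID in the table used here and was not analysed. Cells were transduced with a lentiviral CRISPR-Cas9 construct carrying sgCtrl, directed at the AAVS1 safe-harbour locus, or 1 of 2 guides against KEAP1, sgKeap1-1 and sgKeap1-2, and were selected with puromycin. The methods describe no isolation of clones, so each population may mix edited and unedited cells. Each population was then transfected with siNC, a control siRNA, or with sitfeb/sitfe3, pools that target both TFEB and TFE3, and RNA was collected 72 h later. This gave 6 groups of 4 libraries, 24 in all. All groups, the controls included, carried Cas9, a guide and an siRNA, and all were lines of the same cell type. The library names carry a prefix that differs within a group and is shared by same-numbered libraries across groups, and the labels do not say what it marks. They do not state that libraries of a group came from separate cultures, so p-values measure the spread between these libraries, which may be technical.

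Thioredoxin is a small protein that reduces disulfide bonds in other proteins, and thioredoxin reductase, a selenoprotein, recharges it with electrons from NADPH. Peroxiredoxins destroy hydrogen peroxide with a reactive cysteine, and most of them depend on thioredoxin to be recharged. KEAP1 marks the transcription factor NRF2 for degradation, and NRF2 activates several genes of this system through antioxidant response elements. TFEB and TFE3 are transcription factors of lysosomal and autophagy genes.

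Total reads per library ranged from 3527000 to 4600951. The labels were checked on the targeted genes. KEAP1 RNA was lower with sgKeap1-1, by a log2 fold change of -0.66 under siNC (SE 0.11, limma adjusted p 1.02e-04), and was -0.14 with sgKeap1-2 (SE 0.10, limma adjusted p 0.448). A guide can disrupt a coding sequence without lowering its RNA. TFE3 fell with knockdown in all 3 guide backgrounds, and the fall of TFEB passed in 2 of the 3. In sgCtrl cells TFEB missed the threshold (limma adjusted p 0.0858) on 8 to 68 reads per library. It was at 6.98 to 17.3 CPM there under siNC and at 2.1 to 4.0 CPM with knockdown, without overlap. All 8 hepatocyte markers were tested, while none of the 5 markers of immune, endothelial and fibroblast cells had a row. The summed level of the hepatocyte markers was 21380 to 31760 CPM (counts scaled to a fixed total per library) over the 8 sgCtrl libraries and 11610 to 18090 CPM over the 16 libraries with a KEAP1 guide, and 4 or 5 of the 8 were lower in each KEAP1 comparison. Its part in the results that follow was not tested. Replicate 1 of siNC; sgKeap1-1 and replicate 1 of sitfeb/sitfe3; sgKeap1-2 stood apart from the rest on the second principal component, which held 11.7% of the variance, with PC2 scores of 54.1 and 43.1 against -12.6 to 5.93 for the other 22. The members' changes without these libraries are given after their values.

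The first question was which parts of the system changed when KEAP1 was targeted. TXNRD1 rose between 4.10-fold and 6.56-fold in all 4 comparisons of a KEAP1 guide with sgCtrl, PRDX1 rose between 1.25-fold and 1.37-fold in all 4, TXN rose in 2 of the 4, and TXNIP fell with sgKeap1-2 under both siRNAs. The mitochondrial members TXN2, TXNRD2 and PRDX3 passed the test in none of the 4 comparisons, and neither did PRDX5 or PRDX6. Under siNC, 2 of the 9 members were higher and 0 lower with sgKeap1-1, where 6.01% of all genes were higher and 4.91% lower at a limma adjusted p under 0.05, and 3 were higher and 1 lower with sgKeap1-2, where 7.58% of all genes were higher and 7.14% lower. Under sitfeb/sitfe3, 3 were higher and 0 lower with sgKeap1-1, beside 5.69% and 4.81% of all genes, and 2 were higher and 1 lower with sgKeap1-2, beside 10.6% and 9.59% of all genes. The median log2 fold change of the 9 members was 0.12, 0.18, 0.10 and 0.14 in these comparisons, beside -0.02, 0.00, 0.00 and 0.01 over all genes tested. Both guides were compared with the same sgCtrl libraries, so the comparisons under one siRNA are not independent of each other. In these bulk samples, a change of RNA per cell and a change in the share of cells that carry the RNA cannot be told apart.

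TXNRD1 encodes the cytosolic thioredoxin reductase and lies at chr12:104609557-104744085 on the plus strand of GRCh37. Under siNC, TXNRD1 was measured at 95.8, 92.0, 77.8 and 82.8 CPM in the sgCtrl libraries, at 220.8, 424.6, 331.1 and 521.0 CPM with sgKeap1-1, and at 492.2, 437.4, 454.8 and 499.6 CPM with sgKeap1-2. Every library with a KEAP1 guide was above every sgCtrl library, and the lowest of them was the sgKeap1-1 library that stood apart. The log2 fold change was 2.04 (SE 0.21, limma adjusted p 2.23e-07) with sgKeap1-1 and 2.43 (SE 0.21, limma adjusted p 4.32e-09) with sgKeap1-2. Under sitfeb/sitfe3, TXNRD1 was at 98.7, 62.5, 68.8 and 86.2 CPM in sgCtrl libraries, at 349.7, 393.4, 381.0 and 333.3 CPM with sgKeap1-1, and at 805.4, 375.9, 497.0 and 454.9 CPM with sgKeap1-2. The groups again did not overlap, and the highest library was the sgKeap1-2 library that stood apart. The log2 fold changes were 2.23 (SE 0.21, limma adjusted p 5.61e-08) and 2.71 (SE 0.21, limma adjusted p 7.35e-10). In order of the mean, the 2 sgCtrl groups were lowest, at 79.1 ± 16.5 CPM under sitfeb/sitfe3 and 87.1 ± 8.25 CPM under siNC (SD, n = 4 each). The 4 KEAP1 groups followed from 364.3 ± 27.7 to 533.3 ± 188 CPM (SD, n = 4 each), each overlapping the next.

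**Figure D1:**
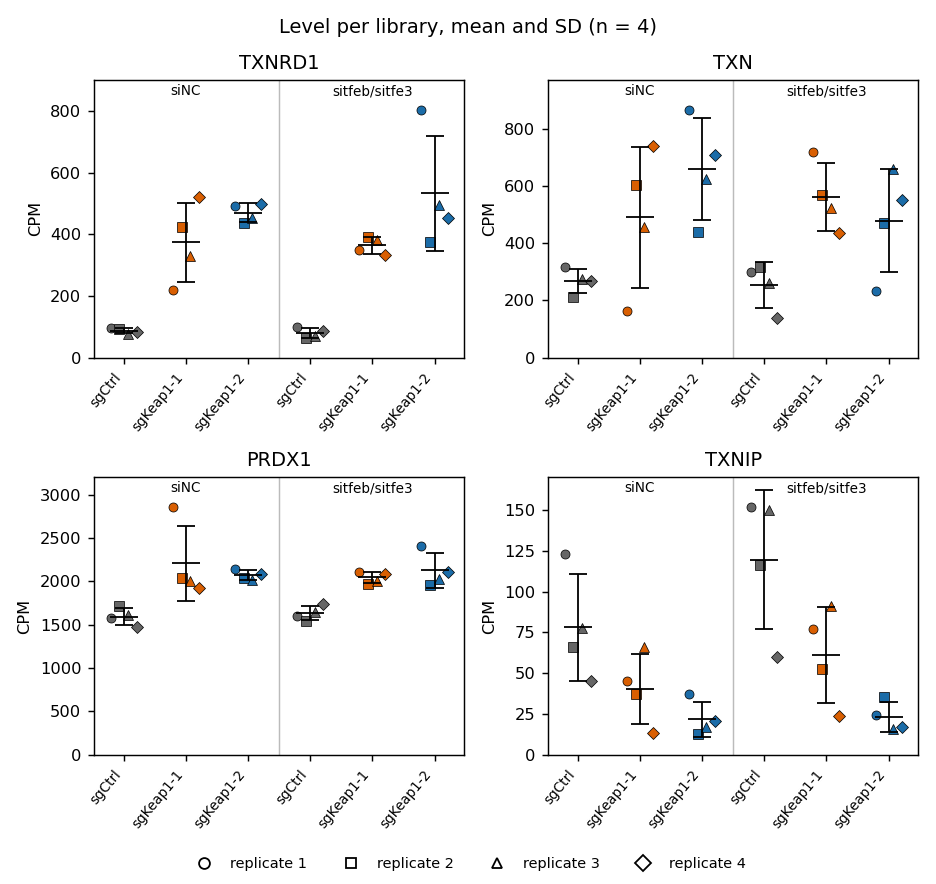
Level in CPM (y axis, linear from 0) of TXNRD1, TXN, PRDX1 and TXNIP in each of the 24 libraries, by guide and siRNA (x axis). Symbols are libraries, and the bar with its whiskers is the mean and SD of 4 libraries. All TXNRD1 and PRDX1 libraries with a KEAP1 guide lie above the sgCtrl libraries with the same siRNA, while 1 TXN library of each group that held a library standing apart lies among or below the sgCtrl libraries.

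The promoter sequence of TXNRD1 is shown because it was the member with the largest rise, and NRF2 is known to bind antioxidant response elements. RefSeq promoter windows (GRCh38.p14) of 250 bases before to 50 bases after a start were held for 7 of the 10 members, 12 windows in all. They were searched on both strands for the core of that element, TGACNNNGC. Both windows of TXNRD1 held it, and the 10 windows of TXN, TXNRD2, SRXN1, PRDX3, PRDX5 and TXNIP did not. Of all 34943 promoter windows of that length, 13.3% held it. The stretches below, with the core in capitals, matched GRCh37 exactly at chr12:104609438-104609486, upstream of the first start, and at chr12:104680698-104680726, upstream of an internal start. In the latter the core lies on the minus strand and the letters are those of the plus strand. A longer stretch around this core overlapped an annotated exon, so fewer bases are shown.
TXNRD1 first start: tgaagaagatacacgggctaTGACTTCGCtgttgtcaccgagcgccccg
TXNRD1 internal start: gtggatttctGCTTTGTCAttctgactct
These cores lie 99 to 91 bases and 102 to 94 bases before their starts. The first window held a further core on the minus strand, at positions -8 to 1 relative to the start, which is not shown. These matches describe letters and are not measured binding sites.

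TXN, the cytosolic thioredoxin that TXNRD1 reduces, lies at chr9:113006090-113018787 on the minus strand. Under siNC, TXN was measured at 316.2, 211.4, 274.8 and 269.1 CPM in sgCtrl libraries, at 163.1, 604.4, 455.5 and 738.4 CPM with sgKeap1-1, and at 866.3, 439.2, 623.6 and 707.4 CPM with sgKeap1-2. With sgKeap1-1, 3 libraries lay above every sgCtrl library and the one that stood apart lay below all of them. TXN rose with sgKeap1-2, with a log2 fold change of 1.27 (SE 0.34, limma adjusted p 0.0120), whereas the value for sgKeap1-1 was 0.69 (SE 0.35, limma adjusted p 0.239). Under sitfeb/sitfe3 the TXN levels were 300.0, 317.5, 259.0 and 138.2 CPM in sgCtrl libraries, 718.4, 568.8, 523.3 and 436.9 CPM with sgKeap1-1, and 234.2, 468.7, 660.4 and 552.4 CPM with sgKeap1-2. All 4 sgKeap1-1 libraries were above every sgCtrl library, while the sgKeap1-2 library that stood apart lay among the sgCtrl libraries. TXN rose with sgKeap1-1, with a log2 fold change of 1.19 (SE 0.35, limma adjusted p 0.0247), and the value for sgKeap1-2 was 0.90 (SE 0.35, limma adjusted p 0.0707). In a fit over the other 22 libraries, TXN passed in both comparisons that it had missed, with log2 fold changes of 1.15 (limma adjusted p 6.54e-04) and 1.20 (limma adjusted p 2.51e-04). The sgKeap1-1 call under sitfeb/sitfe3 was lost without any one of sgCtrl replicate 4 or sgKeap1-1 replicates 1, 2 and 3, with adjusted p from 0.0517 to 0.107. RefSeq names 7 TXN pseudogenes, and how the counting treated reads shared with them was not stated.

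PRDX1 encodes an abundant cytosolic peroxiredoxin and lies at chr1:45976586-46008404 on the minus strand. Its exons overlap those of MMACHC on the opposite strand, and the strand setting of the counting was not stated. Under siNC, PRDX1 was measured at 1577, 1711, 1612 and 1475 CPM in sgCtrl libraries, at 2858, 2041, 2007 and 1928 CPM with sgKeap1-1, and at 2144, 2044, 2014 and 2084 CPM with sgKeap1-2. No library with a KEAP1 guide overlapped an sgCtrl library, and the library that stood apart was the highest. PRDX1 rose by a log2 fold change of 0.45 (SE 0.10, limma adjusted p 0.00212) and 0.38 (SE 0.10, limma adjusted p 0.00788). Under sitfeb/sitfe3 it was at 1606, 1542, 1642 and 1738 CPM in sgCtrl libraries, at 2113, 1973, 2006 and 2089 CPM with sgKeap1-1, and at 2412, 1954, 2033 and 2112 CPM with sgKeap1-2, again without overlap. The log2 fold changes were 0.33 (SE 0.10, limma adjusted p 0.0283) and 0.38 (SE 0.10, limma adjusted p 0.00564). The sgKeap1-1 call under sitfeb/sitfe3 was lost without any one of 6 libraries, sgCtrl replicates 1, 2 and 3 or sgKeap1-1 replicates 1, 3 and 4, with adjusted p from 0.0523 to 0.0874. The rise in PRDX1 was smaller than that of TXNRD1 or TXN on the log2 scale, and its libraries lay close together, with an SD of 56.4 to 97.4 CPM in the 4 groups that held no library standing apart. The compared groups did not overlap, in either direction, for 2, 5, 4 and 3 of the 9 members in the 4 comparisons, beside 14.1%, 20.3%, 17.2% and 19.8% of all genes.

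**Figure D2:**
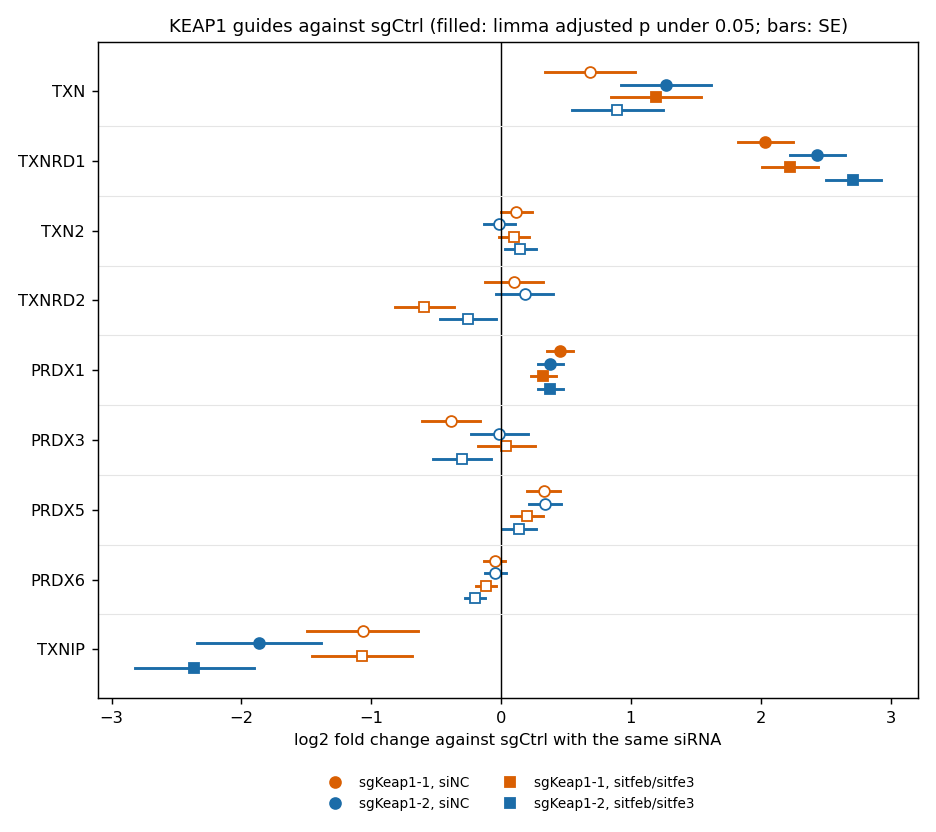
Log2 fold change against sgCtrl with the same siRNA (x axis) for the 9 members (y axis), by guide (colour) and siRNA (circle for siNC, square for sitfeb/sitfe3). Bars are 1 SE of the limma-voom estimate and filled symbols passed an adjusted p of 0.05. TXNRD1 lies between 2.04 and 2.71 and PRDX1 between 0.33 and 0.45 in all 4 comparisons, while TXNIP lies at -1.07 with sgKeap1-1 and at -1.86 and -2.36 with sgKeap1-2.

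TXNIP encodes an arrestin-like protein that binds thioredoxin and holds back its activity and that also restrains glucose uptake. It lies at chr1:145438490-145442635 on the plus strand. Under siNC, TXNIP was measured at 122.9, 66.1, 77.5 and 45.5 CPM in sgCtrl libraries, at 45.1, 37.2, 65.9 and 13.5 CPM with sgKeap1-1, and at 37.3, 12.7, 17.0 and 20.5 CPM with sgKeap1-2. With sgKeap1-1, 3 of 4 libraries lay below every sgCtrl library, and with sgKeap1-2 all 4 did. TXNIP fell with sgKeap1-2, with a log2 fold change of -1.86 (SE 0.48, limma adjusted p 0.00811), and the value for sgKeap1-1 was -1.07 (SE 0.43, limma adjusted p 0.119). Under sitfeb/sitfe3 the TXNIP levels were 151.8, 116.4, 149.7 and 60.2 CPM in sgCtrl libraries, 77.3, 52.4, 91.2 and 23.9 CPM with sgKeap1-1, and 24.4, 35.7, 15.9 and 16.9 CPM with sgKeap1-2. The sgKeap1-1 libraries overlapped the sgCtrl range through the low value of sgCtrl replicate 4, and the sgKeap1-2 libraries lay below it. The log2 fold change was -2.36 with sgKeap1-2 (SE 0.46, limma adjusted p 4.30e-04) and -1.07 with sgKeap1-1 (SE 0.39, limma adjusted p 0.0801). The mean of the 6 groups ran from 21.8 ± 10.8 CPM in siNC; sgKeap1-2 to 119.5 ± 42.7 CPM in sitfeb/sitfe3; sgCtrl (SD, n = 4 each), and each group overlapped the next in that order. The library numbered 4 held the lowest TXNIP level in 4 of the 6 groups.

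A stretch of the TXNIP promoter is shown because TXNIP was the member that fell, and it is known as a gene switched on by the glucose-sensing factors MLXIPL and MLXIP through carbohydrate response elements. The letters searched, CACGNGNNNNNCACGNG on both strands, can contain the E-box CACGTG and occurred in 20 of the 34943 windows, or 0.0572%. One of the 2 TXNIP windows held them, 88 to 72 bases before a start. The stretch matched GRCh37 at chr1:145438382-145438438 on the plus strand, with the matching letters in capitals.
TXNIP: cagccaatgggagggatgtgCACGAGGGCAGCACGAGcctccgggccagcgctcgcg
MLXIPL itself had log2 fold changes of -0.58, -0.78, -1.16 and -1.39 in the order siNC sgKeap1-1, siNC sgKeap1-2, sitfeb/sitfe3 sgKeap1-1 and sitfeb/sitfe3 sgKeap1-2, and passed in the last pair, with limma adjusted p of 0.0126 and 0.00172. MLXIP passed in none of the 4 comparisons, and its means were higher with both guides. Under siNC they were 68.3 ± 10.3 CPM in sgCtrl, 79.0 ± 3.42 in sgKeap1-1 and 87.7 ± 16.3 in sgKeap1-2 cells (SD, n = 4 each). Under sitfeb/sitfe3 they were 64.7 ± 6.1, 74.5 ± 5.4 and 78.2 ± 7.85 CPM (SD, n = 4 each). MLXIPL and MLXIP were singled out after their values were seen. Whether either bears on TXNIP was not tested.

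The mitochondrial branch comprises thioredoxin 2 (TXN2), its reductase (TXNRD2) and PRDX3, the peroxiredoxin of the mitochondrial matrix. TXN2 (chr22:36863093-36877687, minus strand) ranged from 77.4 to 128.3 CPM over the 24 libraries, and its group means ran from 85.5 ± 6.66 to 95.5 ± 4.59 CPM (SD, n = 4 each), each group overlapping the next. Its log2 fold changes with the KEAP1 guides lay between -0.01 and 0.15, with 95% intervals that reached from -0.26 to 0.40, and no adjusted p was below 0.420. The highest TXN2 level belonged to siNC; sgKeap1-1 replicate 1, a library that stood apart.

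TXNRD2 (chr22:19863040-19929343, minus strand) rested on 23 to 61 reads per library, which limits how small a change could be seen. It was measured at 16.1, 10.6, 10.2 and 10.7 CPM in sgCtrl libraries under sitfeb/sitfe3 and at 8.29, 7.05, 8.83 and 6.86 CPM with sgKeap1-1. These 2 groups did not overlap, and the log2 fold change was -0.59 (SE 0.23, limma adjusted p 0.108), which did not pass. Under siNC the same guide gave 0.10 (SE 0.22, limma adjusted p 0.840), and the interaction, the KEAP1 effect under sitfeb/sitfe3 minus that under siNC, was -0.69 (SE 0.32, unadjusted p 0.0402 in limma, adjusted p 1). With sgKeap1-2 the log2 fold changes were 0.18 and -0.26 (limma adjusted p 0.676 and 0.457).

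PRDX3 (chr10:120927232-120938324, minus strand) was measured at 149.6, 133.9, 154.7 and 138.7 CPM in siNC; sgCtrl libraries, at 56.0, 131.7, 122.7 and 161.8 CPM with sgKeap1-1, and at 170.3, 108.5, 146.4 and 152.3 CPM with sgKeap1-2. Under sitfeb/sitfe3 it was at 171.1, 143.2, 154.1 and 119.4 CPM in sgCtrl libraries, at 161.6, 147.9, 154.1 and 137.7 CPM with sgKeap1-1, and at 74.6, 127.2, 133.1 and 149.4 CPM with sgKeap1-2. All groups overlapped, and the 2 lowest values belonged to the libraries that stood apart. The log2 fold changes were -0.39, -0.01, 0.04 and -0.30 in the same order of comparisons as for MLXIPL, with limma adjusted p of at least 0.312. RefSeq names 4 PRDX3 pseudogenes.

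PRDX5 and PRDX6 complete the peroxiredoxins named. PRDX5, found in mitochondria, peroxisomes and the cytosol, lies at chr11:64085593-64089283 on the plus strand. Under siNC, PRDX5 was measured at 83.3, 104.0, 83.6 and 89.4 CPM in sgCtrl libraries, at 96.5, 128.7, 125.2 and 104.4 CPM with sgKeap1-1, and at 115.2, 107.7, 113.0 and 118.7 CPM with sgKeap1-2. The sgKeap1-2 libraries lay above every sgCtrl library and 3 of the 4 sgKeap1-1 libraries did. The log2 fold changes of PRDX5 were 0.33 (SE 0.13, limma adjusted p 0.102) and 0.34 (SE 0.13, limma adjusted p 0.0707), so neither passed, although both passed over the 22 libraries without those that stood apart (limma adjusted p 0.0122 and 0.0180). Under sitfeb/sitfe3 they were 0.20 (SE 0.13) and 0.14 (SE 0.13), with adjusted p of 0.396 and 0.486.

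PRDX6, a peroxiredoxin with a single reactive cysteine that draws on glutathione and also has phospholipase activity, lies at chr1:173446469-173457954 on the plus strand. As a ratio of highest to lowest level, it had the narrowest spread of the 9 members, from 253.1 to 320.2 CPM over 24 libraries. Its log2 fold changes with the KEAP1 guides were -0.05 and -0.05 under siNC and -0.12 and -0.20 under sitfeb/sitfe3. The smallest adjusted p among them in limma was 0.0789, for sgKeap1-2 under sitfeb/sitfe3, and the same comparison passed in DESeq2 (adjusted p 0.0464) and without sitfeb/sitfe3; sgKeap1-2 replicate 3 (log2 fold change -0.30, limma adjusted p 0.00868).

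**Figure D3:**
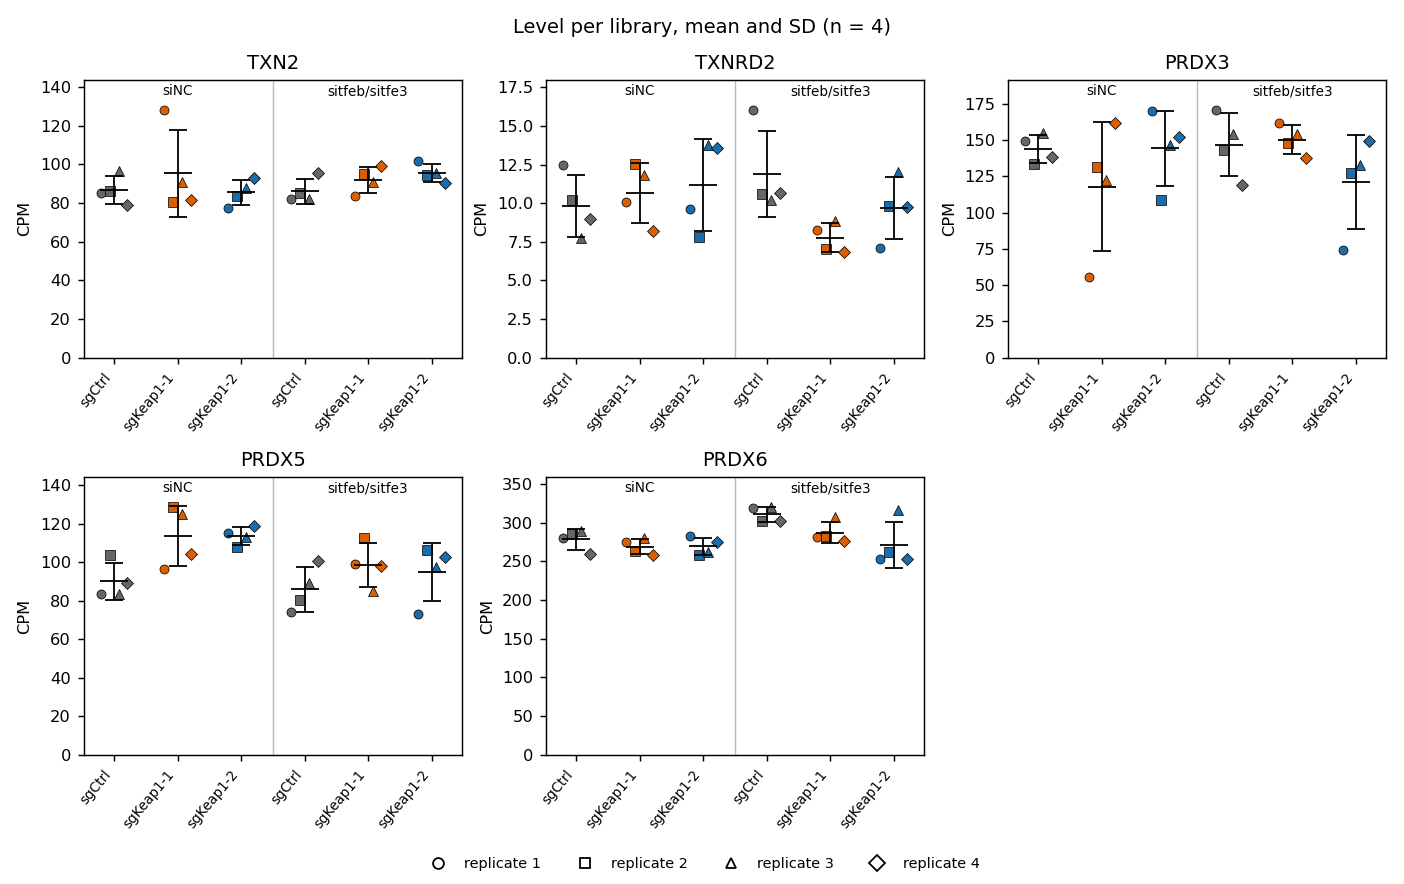
Level in CPM (y axis, linear from 0) of TXN2, TXNRD2, PRDX3, PRDX5 and PRDX6 in each of the 24 libraries, by guide and siRNA (x axis), with the mean and SD of 4 libraries. TXNRD2 lies between 6.86 and 16.1 CPM, and the lowest PRDX3 libraries, at 56.0 and 74.6 CPM, are replicate 1 of siNC; sgKeap1-1 and of sitfeb/sitfe3; sgKeap1-2.

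TXN and PRDX3 varied together within groups. This pattern was noticed after the values were seen. In all 6 groups the library with the lowest TXN level was also the one with the lowest PRDX3 level, which held for 134 of the other 11151 genes, or 1.20%. PRDX1 and TXN2 moved the other way in most groups: each was highest in the library where TXN was lowest in 4 of the 6, while 9.79% of the other genes were highest there in 4 or more. In siNC; sgKeap1-1 replicate 1, TXN lay 1.39 and PRDX3 lay 0.97 below their group means on the log2 CPM scale, while PRDX1 lay 0.39 and TXN2 lay 0.45 above. TXNRD1 did not keep a direction in the libraries that stood apart, lying 0.69 below its group mean in this one and 0.65 above it in sitfeb/sitfe3; sgKeap1-2 replicate 1.

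**Figure D4:**
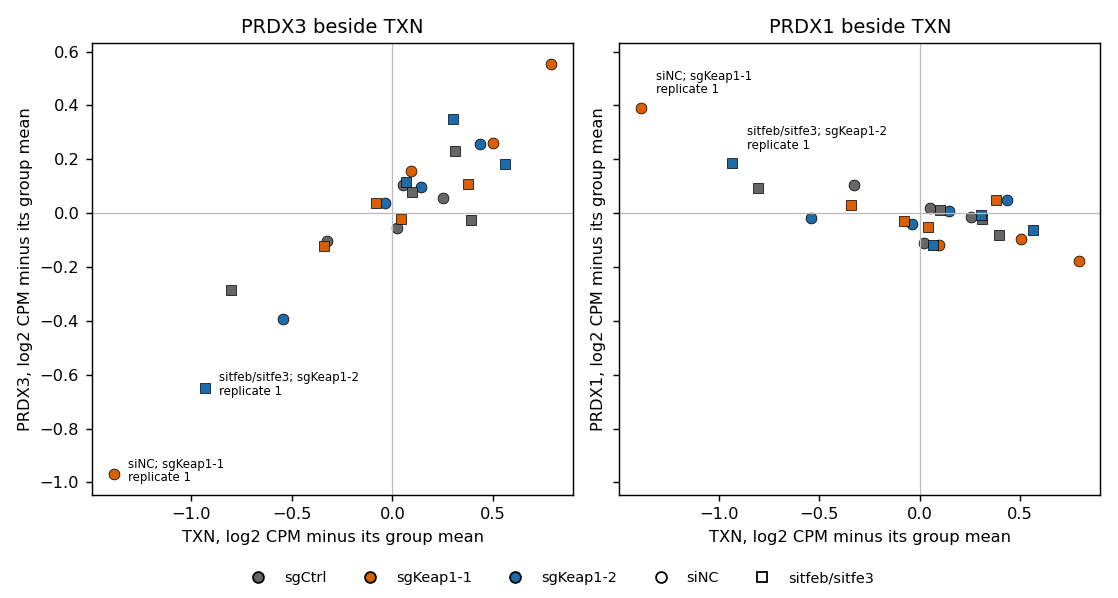
Within-group deviation, in log2 CPM minus the mean of the library's group, of PRDX3 (left, y axis) and PRDX1 (right, y axis) beside that of TXN (x axis). Each point is a library, coloured by guide, with circles for siNC and squares for sitfeb/sitfe3. The library siNC; sgKeap1-1 replicate 1 lies lowest for TXN (-1.39) and PRDX3 (-0.97) and highest for PRDX1 (0.39).

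A fit over the other 22 libraries was added after seeing the data. TXNRD1 and PRDX1 passed in all 4 KEAP1 comparisons in it too, with log2 fold changes of 2.27, 2.44, 2.23 and 2.503 for TXNRD1 and of 0.33, 0.38, 0.33 and 0.32 for PRDX1, in the order sgKeap1-1 and sgKeap1-2 under siNC, then both under sitfeb/sitfe3. TXN passed in all 4 rather than 2, with 1.15, 1.28, 1.19 and 1.20. The PRDX3 changes of -0.39 and -0.30 were -0.06 (SE 0.13, limma adjusted p 0.834) and -0.09 (SE 0.13, limma adjusted p 0.648) without these libraries, and its change with knockdown in sgKeap1-1 cells was 0.12 in place of 0.45. TXN2 lay between -0.03 and 0.12 and did not pass. TXNIP with sgKeap1-1 under sitfeb/sitfe3 passed in this fit (-1.08, SE 0.36, limma adjusted p 0.0450). The interaction of sgKeap1-1 with knockdown was 0.04 for TXN (SE 0.31, limma adjusted p 1) where all 24 libraries gave 0.51. Calls over all genes moved too when either library was left out alone. In the order of comparisons above, 1218, 1641, 1170 and 2253 genes were called with all 24 libraries. The numbers were 1284, 1904, 1367 and 2491 without siNC; sgKeap1-1 replicate 1. Without sitfeb/sitfe3; sgKeap1-2 replicate 1 they were 1424, 1909, 1345 and 2236.

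The next comparison asked whether knockdown of TFEB and TFE3 changed these genes. None of the 9 members passed in limma with knockdown in sgCtrl, sgKeap1-1 or sgKeap1-2 cells, where 0.0179%, 0.0897% and 0.359% of all genes were called. The edgeR test called 0 of them in all 3, where it called 3, 15 and 33 of all genes. DESeq2 also called 0 of them, where it called 8, 48 and 96 of all genes. With so few genes called, a count of 0 says little about the members. Without adjustment, a limma p under 0.05 was reached by 0, 0 and 1 of the 9 members, beside 4.63%, 8.08% and 10.5% of all genes. The one was PRDX5 in sgKeap1-2 cells, with a log2 fold change of -0.27 (SE 0.13, limma adjusted p 0.450). TXNIP had log2 fold changes of 0.62 in sgCtrl cells (SE 0.37, limma adjusted p 1), 0.62 in sgKeap1-1 cells (SE 0.44, limma adjusted p 0.746) and 0.13 in sgKeap1-2 cells (SE 0.55, limma adjusted p 0.956), and in each background its libraries overlapped. PRDX6 was the member whose groups did not overlap in sgCtrl cells, at 318.4, 302.3, 320.2 and 302.0 CPM with knockdown and 279.9, 285.5, 288.5 and 259.2 CPM without (log2 fold change 0.16, SE 0.08, limma adjusted p 1), and the one whose groups did not overlap in sgKeap1-2 cells was PRDX5, at 73.0, 106.3, 97.5 and 102.6 CPM with knockdown and 107.7 to 118.7 CPM without. In sgKeap1-1 cells there was no such member. Of all genes, 3.44%, 5.01% and 5.72% had groups that did not overlap in the 3 backgrounds. For TXNRD1 the log2 fold changes with knockdown were -0.16, 0.03 and 0.12, and the widest of their 95% intervals ran from -0.65 to 0.32. For PRDX1 they were 0.04, -0.09 and 0.03, with intervals that stayed between -0.29 and 0.24.

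**Figure D5:**
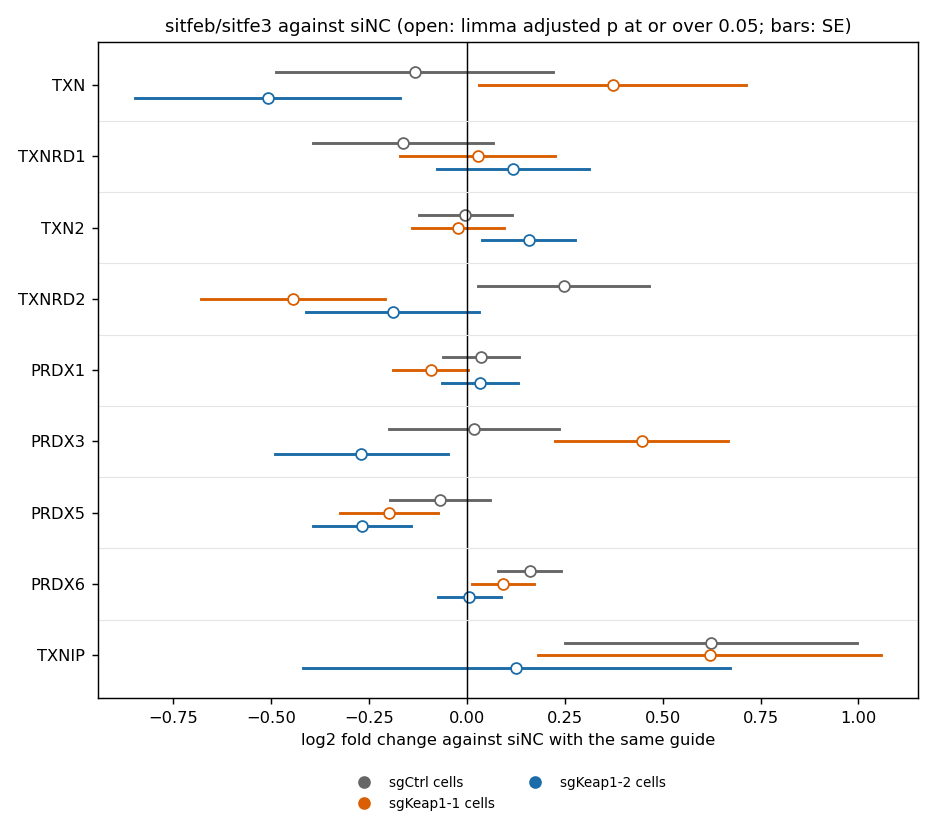
Log2 fold change of sitfeb/sitfe3 against siNC (x axis) for the 9 members (y axis), in sgCtrl, sgKeap1-1 and sgKeap1-2 cells (colours). Bars are 1 SE of the limma-voom estimate, and open symbols did not pass an adjusted p of 0.05. All 27 symbols are open, and TXNIP reaches the highest value, 0.62.

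An E-box, CACGTG, is a sequence that TFEB and TFE3 are known to bind. Of the 12 promoter windows held for the members, 1 contained it, that of PRDX3, against 7.23% of all windows, and its stretch matched GRCh37 at chr10:120938456-120938501, shown on the minus strand with the E-box in capitals 157 to 152 bases before the start.
PRDX3: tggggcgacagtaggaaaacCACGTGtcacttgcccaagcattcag
PRDX3 had log2 fold changes of 0.02, 0.45 and -0.27 with knockdown in sgCtrl, sgKeap1-1 and sgKeap1-2 cells, with limma adjusted p of 1, 0.622 and 0.706. The middle value includes the library with the lowest PRDX3 level among the siNC libraries.

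Whether the KEAP1 effect itself depended on TFEB and TFE3 was tested as an interaction. No member passed for either guide in limma, where 0% of all genes were called in both interactions. The interaction was 0.19 for TXNRD1 with sgKeap1-1 (SE 0.30, limma adjusted p 1) and 0.28 with sgKeap1-2 (SE 0.30, limma adjusted p 0.991). For PRDX1 it was -0.13 (SE 0.14) and -0.00 (SE 0.14), and for TXNIP it was -0.00 (SE 0.58) and -0.50 (SE 0.66). The intervals were wide for TXN, from -0.52 to 1.54 with sgKeap1-1 and from -1.40 to 0.65 with sgKeap1-2. They were wider for TXNIP, from -1.21 to 1.21 and from -1.89 to 0.89. A sizeable dependence of either gene could thus go undetected with these libraries. Of the 9 members, the unadjusted p was under 0.05 for 1 with sgKeap1-1, which was TXNRD2 as given above, and for 0 with sgKeap1-2. The shares of all genes were 2.73% and 4.07%.

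The KEAP1 guides were also set against each other. No member passed between them in limma under siNC, where 0% of all genes were called, or under sitfeb/sitfe3, where 0.00897% were. TXNIP was lower with sgKeap1-2 than with sgKeap1-1 by a log2 difference of -0.80 under siNC (SE 0.51, limma adjusted p 0.815) and -1.29 under sitfeb/sitfe3 (SE 0.48, unadjusted p 0.0119 in limma, adjusted p 0.557). TXNRD1 was 0.40 higher with sgKeap1-2 under siNC (SE 0.20, limma adjusted p 0.815) and 0.49 higher under sitfeb/sitfe3 (SE 0.20, unadjusted p 0.0191 in limma, adjusted p 0.591). Over the 22 libraries without those that stood apart, the TXNRD1 differences were 0.17 (SE 0.12) and 0.28 (SE 0.12). Those of TXNIP were -0.67 (SE 0.56) and -1.33 (SE 0.53) there. The edgeR test called 0 members in both, where it called 2 and 3 of all genes. DESeq2 called 0 members in both too, where it called 9 and 18 of all genes. Without adjustment, in the fit over all 24 libraries, 0 members under siNC had a limma p under 0.05, beside 5.36% of all genes. Under sitfeb/sitfe3 TXNIP and TXNRD1 did, beside 7.68% of all genes. This fit, which has no term for the replicate number, thus showed no difference between the guides, and the fit with that term is given among the alternatives.

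The rest of the pathway was described by 4 lists with 58 genes, of which 54 were tested. In the 4 KEAP1 comparisons 0, 2, 2 and 5 of the 54 were higher and 4, 4, 4 and 5 were lower, or 7.41%, 11.1%, 11.1% and 18.5% of them, beside 10.9%, 14.7%, 10.5% and 20.2% of all genes called in either direction. Among 21 genes with a thioredoxin fold and further peroxiredoxins, GLRX5, a mitochondrial glutaredoxin of iron-sulfur cluster assembly, fell in all 4 comparisons. Its mean went from 326.3 ± 21.1 CPM in siNC; sgCtrl to 241.6 ± 26.6 with sgKeap1-1 and 221.1 ± 33.7 with sgKeap1-2 (SD, n = 4 each), with log2 fold changes of -0.44 (SE 0.10, limma adjusted p 0.00571) and -0.57 (SE 0.10, limma adjusted p 3.14e-04). Under sitfeb/sitfe3 the GLRX5 changes were -0.44 and -0.67. Of the peroxiredoxins that were not members, PRDX2, cytosolic like PRDX1, had log2 fold changes of -0.06, -0.24, -0.05 and -0.34 and PRDX4, of the endoplasmic reticulum, had 0.12, 0.03, 0.00 and 0.04. Neither passed, with limma adjusted p of at least 0.225 for PRDX2 and 0.612 for PRDX4.

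Among 17 genes of selenoprotein synthesis and other selenoproteins, SELENOP, the selenium transport protein that liver secretes, fell in all 4 comparisons. Its level went from 1190 ± 205 CPM in siNC; sgCtrl to 613.9 ± 187 CPM with sgKeap1-1 and 581.9 ± 57.8 CPM with sgKeap1-2 (SD, n = 4 each), with log2 fold changes of -1.0 (SE 0.18, limma adjusted p 3.28e-04) and -1.02 (SE 0.18, limma adjusted p 1.97e-04). Under sitfeb/sitfe3 the changes were -0.82 and -1.26. TXNRD1, itself a selenoprotein, rose in the same comparisons, and the selenoprotein TXNRD2 passed in none. The other call in this list was SEPHS2, which makes the selenium donor, at -0.40 with sgKeap1-1 under siNC (SE 0.11, limma adjusted p 0.0165). SEPHS2 was singled out after its values were seen. Among 10 proteins that thioredoxin reduces or binds and sestrins, the calls were all lower, 1, 1, 1 and 2 in the 4 comparisons. Among 6 relatives of TXNIP and sugar-sensing factors, 0, 0, 1 and 2 passed, of which 1 was higher.

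The genes with the most similar pattern to TXNRD1 and TXNIP were sought among 10529 tested genes that were no members and averaged 10 or more counts per library, by the root mean square difference between centred group means of log2 CPM over the 6 groups. The nearest to TXNRD1 were GPAT3 (0.11), TNFSF9 (0.13) and PFKP (0.13), all in log2 units. The nearest to TXNIP were the metallothioneins MT1G (0.21) and MT1A (0.22) and the carboxypeptidase subunit CPN1 (0.26). MT1G had group means of 9.12, 7.67 and 7.12 log2 CPM under siNC in sgCtrl, sgKeap1-1 and sgKeap1-2 cells and of 9.34, 8.02 and 7.08 under sitfeb/sitfe3. This likeness over 6 points describes the order and size of the group means.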

How the data were processed

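The authors deposited raw read counts per gene, whole numbers with no normalization. Per the labels and the study's methods, QuantSeq 3′ libraries were sequenced single-end on a NextSeq 500. The submitters' processing notes name FastQC 0.72, cutadapt 1.16, STAR 2.7.5b, featureCounts 1.6.3 and limma 3.40.6. Those notes name hg38 and the methods hg19, so the build behind the counts was not settled and all coordinates are those of GENCODE on GRCh37, independent of the counts. The strand setting and annotation were not given in the sources used here. Of 13446 rows, 1414 had no gene ID (1.35% to 2.57% of reads) and were left out. Rows sharing an ID were summed and IDs with identical counts merged, leaving 11927 features. The table already lacked genes with few reads, since its smallest row total was 15.

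Counts were filtered with filterByExpr (11152 genes left), scaled with TMM and fitted with limma-voom in R 4.3.3 (edgeR 4.0.16, limma 3.58.1), 24 libraries in 1 fit of 6 group means, two-sided, with Benjamini-Hochberg adjustment over all genes and a threshold of 0.05. CPM uses the TMM-scaled library size and log2 CPM a prior count of 2. Alternatives were other scalings, no filter, edgeR's quasi-likelihood test, DESeq2 1.42.0, a replicate block, quality weights, fewer groups and left-out libraries. Reads carry no molecular identifier. The members, the 4 lists and the tests were chosen with earlier results of these data known. Genes named were the members, KEAP1, TFEB, TFE3, PRDX2, PRDX4, any listed gene called the same way in all 4 KEAP1 comparisons, and the 3 genes most like TXNRD1 and TXNIP (SRXN1 could not be used). MLXIPL, MLXIP and SEPHS2 were added after their values were seen. Overlaps between annotated genes are not all reported here.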

Additional observations from a re-analysis of the deposited data

Results flagged for a closer look

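In each group of 4 libraries, the highest and lowest value of each member was compared with the nearest of the others by Dixon's ratio of gap to range. Of 54 groups, 3 held a library past Dixon's 95% critical value, where chance gives about 1 in 20. TXNRD2 was at 16.1 CPM in sitfeb/sitfe3; sgCtrl replicate 1, against 10.2 to 10.7 CPM in the other libraries of that group. PRDX1 was at 2858 CPM in siNC; sgKeap1-1 replicate 1, a library that also stood apart over all genes, against 1928 to 2041 CPM. PRDX6 was at 316.0 CPM in sitfeb/sitfe3; sgKeap1-2 replicate 3, against 253.1 to 262.5 CPM.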

How the results depend on the processing

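Over 35 alternatives no called change of a member reversed, and the calls for TXNRD1 (4 comparisons) and TXNIP with sgKeap1-2 (both siRNAs) held in all of them. For the number of members called with sgKeap1-1 under siNC, 2 as reported, quality weights gave 4, the libraries numbered 2 to 4 gave 4 and the 22 libraries without those that stood apart, an alternative chosen after seeing the data, gave 4. Leaving out single libraries gave 2 to 4 there, with 4 without siNC; sgKeap1-1 replicate 1, and 1 to 4 with sgKeap1-1 under sitfeb/sitfe3, where 3 were reported and 1 was left without sgKeap1-1 replicate 1 or without sgKeap1-1 replicate 3. For the other thiol redox genes with sgKeap1-1 under siNC, 4 as reported, the replicate block gave 7, quality weights 8, the compared groups alone 2 and the libraries numbered 2 to 4 gave 7. With sgKeap1-2 under siNC, 6 as reported, quality weights gave 12, the libraries numbered 2 to 4 gave 10 and the 22 libraries gave 10. The number of all genes called moved too. With sgKeap1-1 under siNC it was 1218 as reported, 1454 with the block and 1776 with quality weights. The compared groups alone gave 766, the libraries numbered 2 to 4 gave 1618 and leaving out sgKeap1-1 replicate 1 gave 1284. With sgKeap1-2 under siNC it was 1641, with 2479 under quality weights and 2117 over the libraries numbered 2 to 4. With sgKeap1-1 under sitfeb/sitfe3 it was 1170, and 1091 or 824 without sgKeap1-1 replicate 1 or 3. The cause of these shifts was not tested. The lowest counts, those of TXNRD2, limit what could be seen for it.

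Same-numbered libraries share a name prefix of unstated meaning across groups, and whether it pairs them was not settled, so the block was kept as an alternative. The correlation of their deviations had a median of 0.046 and ranged from -0.163 to 0.430 (medians of 0.123 for number 1 and 0.032 to 0.038 for the others, against -0.025 for other pairs), and 15 of 24 libraries correlated best with their own number, a hint from the data and not the design. With the replicate block, 1 member was called between the guides under sitfeb/sitfe3, where 0 had been, and it was TXNIP (log2 difference -1.41, limma adjusted p 0.0307). Of all genes, 11 were called there with the block and 1 as reported. The block also brought past the threshold TXNIP with sgKeap1-1 under siNC (-1.02, limma adjusted p 0.00663) and under sitfeb/sitfe3 (-1.02, limma adjusted p 0.00368) and PRDX5 with sgKeap1-2 under siNC (0.34, limma adjusted p 0.0443), and changed no other member's call. In these comparisons the block called 1454, 1381 and 1902 of all genes, where 1218, 1170 and 1641 were reported.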
